A study of Mus musculus with 6 samples.

Results

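The genes described here are the interleukin 1 (IL-1) and interleukin 33 (IL-33) cytokines of the mouse and their receptors. A list of 10 gene symbols was looked up in a table of RNA-seq values for 17924 genes, and 9 of them were found: the ligands Il1a, Il18 and Il33, the antagonist Il1rn, the decoy receptor Il1r2, the co-receptor Il1rap, and the receptors Il1r1, Il1rl2 and Il1rl1. Il1b, the other ligand of Il1r1, was not analysed here. The list was chosen by family and receptor role and in part selected on the CPM values of Il1rl1, which were higher in Nelfb-/- than in CTL cells, so the comparison of CTL with Nelfb-/- cells is given for these genes as a description, without p-values. All 9 were among the 16252 genes that averaged 10 or more reads over the libraries and entered the statistical fit.

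Cells came from the dorsal dermis of newborn (P0) mice, and 3 CTL and 3 Nelfb-/- cultures were sequenced after 14 days in a medium that drives fibroblasts to become adipocytes. All mice were kept on a C57BL/6J background and carried Pdgfra-Cre+. CTL mice were Nelfb fl/wt or had no floxed allele (Nelfb wt/wt), and Nelfb-/- mice were Nelfb fl/fl. Nelfb encodes a subunit of the negative elongation factor, which holds RNA polymerase II near the start of genes. The Cre is driven by the promoter of Pdgfra, a receptor of fibroblasts and adipocyte precursors, and it is not made in cells that do not use that promoter. The cells were not sorted by a surface marker, and which of the CTL genotypes each CTL library had is not given in the sources used here.

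IL-1 family cytokines are alarm signals that stromal, epithelial and immune cells release on damage or infection. A ligand binds its receptor, which then recruits a co-receptor, the product of Il1rap for IL-1, IL-33 and IL-36 and that of Il18rap for IL-18, and the pair signals through Myd88 and the Irak kinases to NF-kappaB and the MAP kinases. Signalling is held in check by a receptor antagonist, by decoy receptors that bind ligand without passing on a signal, and by soluble receptor forms. In fat, IL-33 and its receptor ST2, the product of Il1rl1, are known for sustaining the regulatory T cells and innate lymphoid cells of the tissue, and IL-1 is known to hold back adipocyte differentiation in culture.

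The values are counts per 1e+06 reads (CPM) of all genes in the table, and are not corrected for gene length. The libraries held between 17.2 and 29.4 M reads (M, 1e+06) on these genes, and 3 reads, the floor below which a level was not read, were worth between 0.102 and 0.175 CPM. Fold changes are log2 values of Nelfb-/- against CTL with a standard error (SE), computed on log2 of the reads at a common depth plus 1 read, a scale that understates the change of genes with few reads. Nelfb itself was at 17.3, 19.6 and 22.3 CPM in CTL and at 5.50, 3.90 and 5.55 CPM in Nelfb-/- cells (log2 fold change -1.99, SE 0.22, limma, adjusted p = 0.0050). A gene was called when its adjusted p from limma was at most 0.05 and its change at least 2-fold. Of the 16252 genes tested, 7.58% were called higher and 3.64% were called lower in Nelfb-/- cells, and at 22.0% the Nelfb-/- libraries were all higher than the CTL libraries. Libraries of a group were not alike. The summed level of 15 macrophage markers lay between 262 and 957 CPM in CTL and between 2599 and 8211 CPM in Nelfb-/- cells, with replicate 1 highest. The summed fibroblast markers were highest in replicate 3 among the CTL and lowest in replicate 1 among the Nelfb-/- libraries. Dcn, a fibroblast marker in this sum, was instead lowest in CTL replicate 3.

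The 5 receptor genes differ in where they lie. Il1r2, Il1r1, Il1rl2 and Il1rl1 follow each other on chromosome 1 within 391 kb (mm10, from 40074079 to 40465415), all on the forward strand, whereas Il1rap lies on chromosome 16. Il1rl1 (ENSMUSG00000026069, chromosome 1 from 40429570 to 40465415) is transcribed from more than 1 promoter, and RefSeq gives it 2 separate starts. The 250 bases before each start on GRCm38.p6 are shown because this gene had the largest fold change of the 9, with capitals marking the match to a GATA-type motif (AGATAA on either strand).

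Il1rl1 distal start, chr1:40429320-40429569, forward strand: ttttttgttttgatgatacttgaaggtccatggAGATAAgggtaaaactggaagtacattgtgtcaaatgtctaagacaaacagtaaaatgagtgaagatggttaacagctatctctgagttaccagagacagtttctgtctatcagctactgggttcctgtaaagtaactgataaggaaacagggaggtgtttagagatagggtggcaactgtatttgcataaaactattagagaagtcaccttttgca

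Il1rl1 proximal start, chr1:40439379-40439628, forward strand: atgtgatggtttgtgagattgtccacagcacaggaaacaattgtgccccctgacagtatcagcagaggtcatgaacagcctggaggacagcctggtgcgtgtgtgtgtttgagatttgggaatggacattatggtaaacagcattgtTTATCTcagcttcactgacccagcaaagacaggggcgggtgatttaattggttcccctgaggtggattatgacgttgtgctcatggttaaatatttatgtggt

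The distal window held no CpG and had 37.6% G or C, and the proximal window held 3 CpG and had 46.4%. Over all 32851 RefSeq windows of this length, the median was 52.4% G or C with 6 CpG, and 7.87% held no CpG. The GATA-type letters lay from -217 to -212 in the distal window, and from -103 to -98 on the other strand in the proximal window, and 9.99% of all windows held them. Neither window held TATAAA, an AP-1 site (TGANTCA) or an NF-kappaB site (GGGNN followed by TTTCC), which 12.4%, 6.75% and 1.41% of all windows held on either strand. The window of Il1rap stood at the other end, with 74.4% G or C, 30 CpG and none of the 4 motifs. TATAAA also lay from -166 to -161 in the window of Il1rl2. Among the ligands, the single window of Il1a held TATAAA from -32 to -27 and an AP-1 site from -12 to -6, the window of Il18 held TATAAA from -175 to -170, and those of Il33 held it from -203 to -198 and from -29 to -24. Of the 3 windows of Il1rn, 1 held an AP-1 site from -141 to -135 and another the NF-kappaB letters from -51 to -42. These matches are a description of the letters. The gene-level values cannot tell the starts of Il1rl1 apart, nor the membrane-bound from the soluble receptor that the gene encodes.

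Il1rl1, the receptor of IL-33, had 1.04, 0.887 and 4.69 CPM in the CTL replicates, in the order 1, 2 and 3 used throughout, against 269.7, 131 and 154 CPM in the Nelfb-/- replicates. The groups did not overlap, and the lowest Nelfb-/- library was 27.8 times the highest CTL library. The CTL mean of 2.21 ± 2.15 CPM (SD, n = 3) compared with 185 ± 74.4 CPM for Nelfb-/-, which is 83.8 as a ratio of means and 6.71 (SE 0.65) as a fitted log2 fold change. Fits without any 1 library gave 6.28 to 7.45. In reads, the gene had 23, 19 and 138 in CTL and 5687, 2244 and 3776 in Nelfb-/- libraries, so its low level in CTL still lay above the floor in every library.

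Il1r1, the signalling receptor of IL-1 (ENSMUSG00000026072, chromosome 1 from 40225080 to 40317257), was at 33.7, 27.3 and 98.4 CPM in CTL and at 97.0, 316 and 279 CPM in Nelfb-/- cells. CTL replicate 3 lay just above Nelfb-/- replicate 1, so the groups overlapped. The means were 53.1 ± 39.3 and 230.6 ± 117 CPM, with a log2 fold change of 2.19 (SE 0.62). Il1rl2, the receptor of the IL-36 cytokines (ENSMUSG00000070942, chromosome 1 from 40324610 to 40367562), was at 9.97, 10.2 and 24.3 CPM in CTL and at 35.6, 93.9 and 85.6 CPM in Nelfb-/- cells. Its order over the libraries was close to that of Il1r1, with CTL replicate 3 high among the CTL and Nelfb-/- replicate 1 low among the Nelfb-/- libraries, but its groups did not overlap (log2 fold change 2.28, SE 0.49). The ratio of Il1r1 to Il1rl2, each per kb of exon, lay between 2.85 and 4.33 in the 6 libraries, although Il1r1 spanned 11.6-fold and Il1rl2 9.42-fold over them. Il1r1 overlaps Gm38070 in position and Il1rl2 overlaps Gm17970, and how reads in such overlaps were counted is not given in the sources used here.

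Il1rap, the co-receptor that IL-1, IL-33 and IL-36 receptors share (ENSMUSG00000022514, chromosome 16 from 26581704 to 26730117), was at 33.8, 30.0 and 35.1 CPM in CTL and at 90.7, 71.2 and 81.5 CPM in Nelfb-/- cells. Each group was tight and the groups lay apart, with means of 33.0 ± 2.67 and 81.1 ± 9.75 CPM and a log2 fold change of 1.29 (SE 0.14). Il1r2, the decoy receptor that binds IL-1 without signalling (ENSMUSG00000026073, chromosome 1 from 40074079 to 40125231), was at 0.722, 0.700 and 0.748 CPM in CTL and at 4.31, 3.43 and 3.43 CPM in Nelfb-/- cells. Its level was low, with no overlap and little spread in either group (log2 fold change 2.29, SE 0.26).

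Among the ligands, Il33 (ENSMUSG00000024810, chromosome 19 from 29925114 to 29960718), the alarmin that binds the product of Il1rl1, was at 0.992, 0.747 and 1.22 CPM in CTL and at 3.41, 19.0 and 14.4 CPM in Nelfb-/- cells. All Nelfb-/- libraries were higher than the CTL libraries, but they spread over 5.56-fold, against 1.64-fold in CTL (log2 fold change 3.28, SE 0.65, and 4.03 without Nelfb-/- replicate 1). The library with the least Il33 among the Nelfb-/- libraries, replicate 1, was the one with the most Il1rl1. Il18 (ENSMUSG00000039217, chromosome 9 from 50554827 to 50581840), a cytokine that inflammasomes release, was at 0.406, 0.140 and 0.510 CPM in CTL and at 2.66, 1.75 and 2.20 CPM in Nelfb-/- cells. It was low but separate between the groups (log2 fold change 2.63, SE 0.50). The gene overlaps Bco2 on the opposite strand, so some of its reads are uncertain.

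Il1a (ENSMUSG00000027399, chromosome 2 from 129299610 to 129309972), which encodes IL-1 alpha, was at 0.156, 0.395 and 0.0680 CPM in CTL and at 2.15, 0 and 0.0816 CPM in Nelfb-/- cells. Nelfb-/- replicate 1 held 45.3 reads, against at most 8.47 in any other library, while replicate 2 held no read, which allows up to 0.175 CPM by counting error alone. The groups overlapped and no difference was detectable at this depth (log2 fold change 0.11, SE 1.45). Gm14023, on the opposite strand, overlaps Il1a, and how reads in the overlap were counted is not given in the sources used here. Il1rn (ENSMUSG00000026981, chromosome 2 from 24336853 to 24351494), the secreted antagonist that competes with IL-1 for Il1r1, was at 13.0, 13.9 and 3.84 CPM in CTL and at 30.9, 26.4 and 26.4 CPM in Nelfb-/- cells. The Nelfb-/- libraries were alike and all higher, and CTL replicate 3 was lowest (log2 fold change 1.64, SE 0.49, and 1.04 without CTL replicate 3). In CPM per kb of exon it lay above the 3 ligands in every CTL library.

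**Figure D1:**
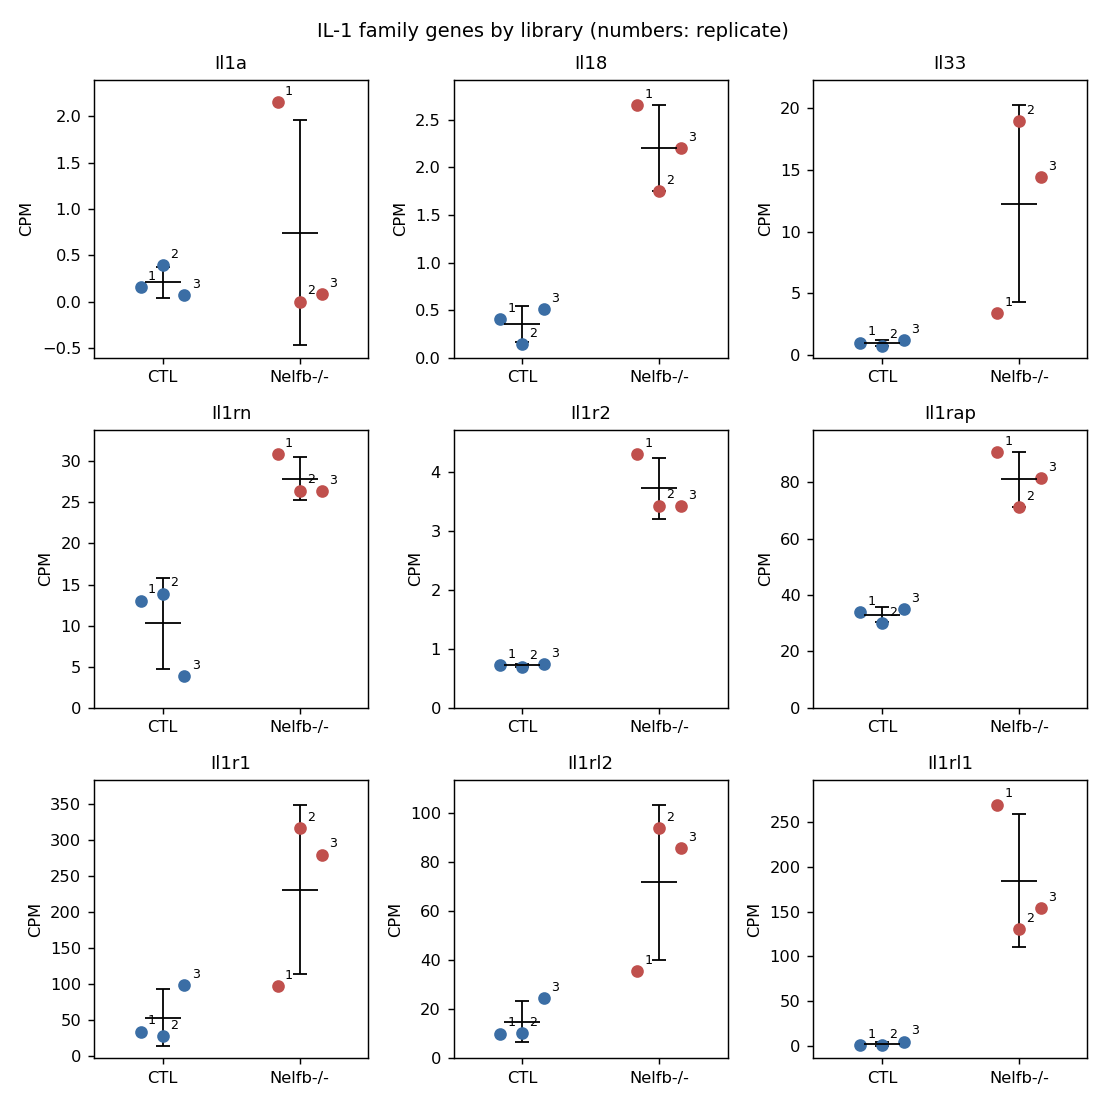
Levels of the 9 genes in CPM (linear vertical axes, 1 panel per gene) in CTL (blue) and Nelfb-/- (red) libraries, with the replicate number beside each point and the mean ± SD as bars (n = 3). Points do not overlap between the groups for 7 genes, while those of Il1a and Il1r1 do.

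The median log2 fold change of the 9 genes was 2.28 against 0.068 over all genes tested. It was positive for all but Il1a in every setting tried, while Il1a entered the fit only through Nelfb-/- replicate 1 and changed sign with the setting. The groups did not overlap, with Nelfb-/- higher, at 7 of the 9, beside 22.0% of all genes tested, and 6 of the 9 (Il1rl1, Il33, Il18, Il1r2, Il1rl2 and Il1rap) were called higher, beside 7.58%. Il18 averaged 0.352 CPM in CTL, under the 0.448 CPM of the read filter, and entered the fit through its Nelfb-/- libraries. The genes were listed with this contrast known, so nothing is read from these counts. Leaving out 1 library gave 3 to 8 calls: Il18, Il33 and Il1rl2 were no longer called without CTL replicate 1, Nelfb-/- replicate 2 or Nelfb-/- replicate 3, nor Il33 and Il1rl2 without CTL replicate 2. Without CTL replicate 3 and Nelfb-/- replicate 1, which stood apart from the other libraries of their groups, 7 were called, and the log2 fold change of Il1r1 was 3.29 and that of Il1rl1 was 7.14. In these bulk samples, fewer cells of a type and less RNA per cell cannot be told apart.

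Levels of different genes were compared as CPM per kb of exon. In CTL the order was Il1r1 at 8.35 ± 6.18 (SD, n = 3), Il1rap at 2.90 ± 0.235, Il1rl2 at 2.18 ± 1.21 and Il1rn at 1.85 ± 1.01. The other 5 genes had lower means, with Il1r2 at 0.379 ± 0.0126, Il33 at 0.342 ± 0.0827, Il18 at 0.341 ± 0.185, Il1rl1 at 0.320 ± 0.313 and Il1a at 0.105 ± 0.0858. Il1r1 lay above the others in every CTL library. The range of Il1rl2 overlapped those of Il1rap and Il1rn, while Il1rap lay above Il1rn in every CTL library. The ranges of Il1r2, Il33, Il18 and Il1rl1 overlapped each other, and that of Il1a overlapped those of Il18 and Il1rl1, so no order is read among these. In Nelfb-/- cells Il1r1 was at 36.2 ± 18.4 and Il1rl1 at 26.8 ± 10.8 CPM per kb, and their ranges overlapped. The means of the others were Il1rl2 at 10.5 ± 4.63, Il1rap at 7.14 ± 0.859, Il1rn at 5.04 ± 0.467 and Il33 at 4.25 ± 2.77, Il18 at 2.14 ± 0.441, Il1r2 at 1.95 ± 0.268 and Il1a at 0.377 ± 0.617. The range of Il33, from 1.18 to 6.58, overlapped those of Il1rl2, Il1rap, Il1rn, Il18 and Il1r2, that of Il1rl2 overlapped those of Il1rap and Il1rn, and that of Il18 overlapped that of Il1r2, so no order is read between these pairs. In Nelfb-/- replicate 1 Il1rl1 was at 39.1 and Il1r1 at 15.2 CPM per kb, the reverse of their order in replicates 2 and 3.

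The makeup of the receptor transcripts differed with it. Summed over the 5 receptor genes, the level was 10.3, 8.92 and 23.2 CPM per kb in CTL and 69.8, 90.4 and 87.8 in Nelfb-/- cells. Il1rl1 made up 1.46%, 1.44% and 2.94% of this sum in CTL and 56.0%, 21.0% and 25.5% in Nelfb-/- cells. Nelfb-/- replicate 1 stood apart from replicates 2 and 3, since Il1rl1 was 2.57 times Il1r1 per kb in it and 0.382 and 0.509 times Il1r1 in the others. The ratio was 0.0284, 0.0300 and 0.0440 in CTL. These shares restate the level of Il1rl1, on which the list was in part selected.

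**Figure D2:**
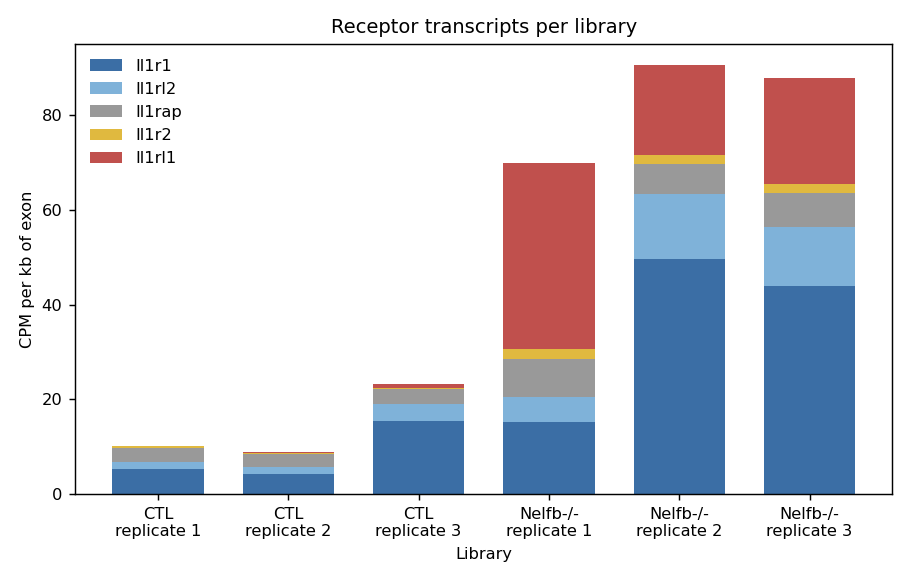
Stacked CPM per kb of exon (linear axis from 0) of the 5 receptor genes in each of the 6 libraries, 1 bar per library with no error bar. The sums range from 8.92 to 23.2 in CTL and from 69.8 to 90.4 in Nelfb-/- cells, and the red Il1rl1 part is largest in Nelfb-/- replicate 1.

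The genes around the 9 were described by the same fit. Of 38 other genes of the table within 200 kb of any of the 9, 31 were tested. With limma 0 were called, beside 11.2% of all genes tested, while 12 had an unadjusted p under 0.05, beside 32.5%. An adjusted p of at most 0.05 was reached by 6, all lower in Nelfb-/- cells by less than 2-fold: Sdhd, 1110032A03Rik, Dixdc1, Timm8b, Pts and Uhrf2. Their log2 fold changes lay between -1.0 (Sdhd, near Il18) and 1.96 (Il18rap), with a median of -0.12. Map4k4, the tested neighbour on the side of Il1r2, was at 463, 451 and 244 CPM in CTL and at 424, 329 and 304 CPM in Nelfb-/- cells (log2 fold change -0.09, SE 0.29, limma, adjusted p = 0.86). On the other side of the cluster, Il18rap, the co-receptor of the IL-18 receptor, was at 0.225, 0.0467 and 0.510 CPM in CTL and at 0.427, 1.51 and 1.06 CPM in Nelfb-/- cells. These overlapped and did not pass (log2 fold change 1.96, SE 0.80, limma, adjusted p = 0.14). The value was 1.27 without CTL replicate 2 and 2.57 without CTL replicate 3, with no call in either fit. Near Il1rn, the value of Psd4 was 0.98 (SE 0.29, limma, adjusted p = 0.066). The opposite-strand genes Gm14023 at Il1a and Bco2 at Il18 had 1.35 (SE 0.52, limma, adjusted p = 0.13) and 1.81 (SE 0.70, limma, adjusted p = 0.13).

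**Figure D3:**
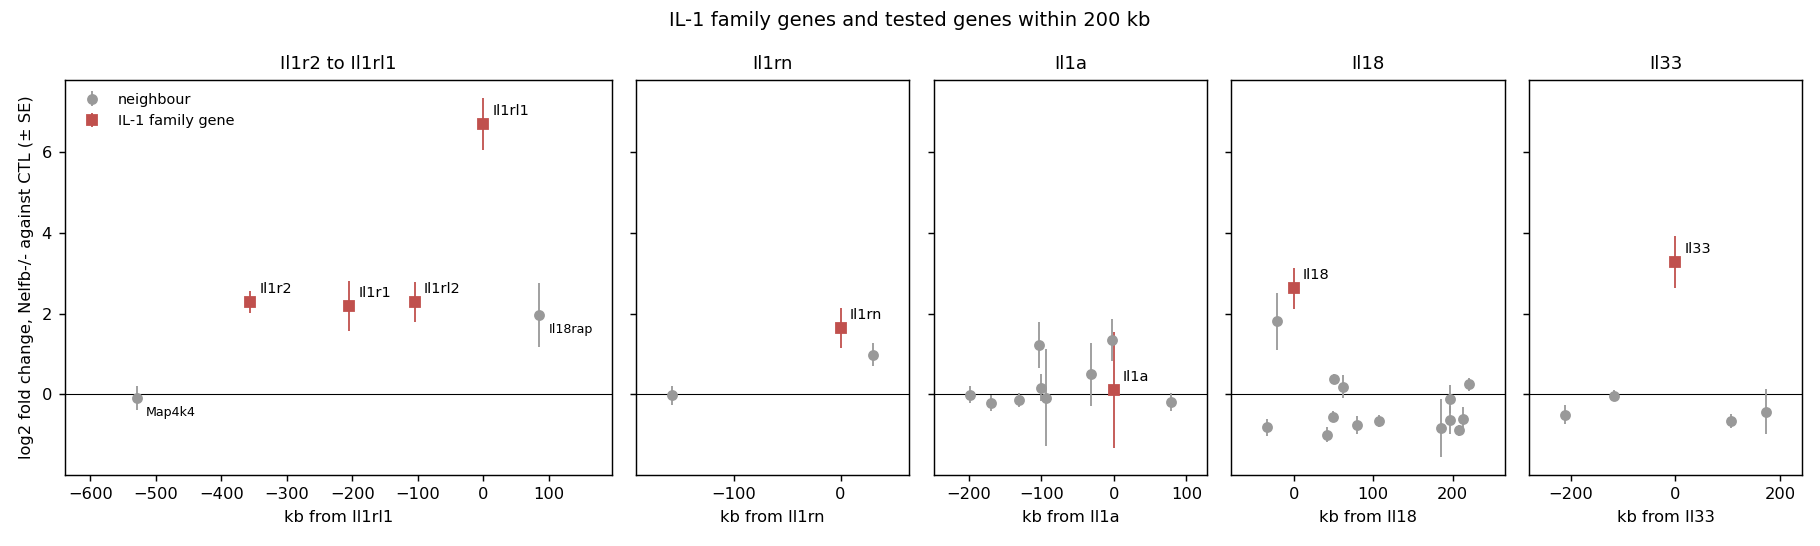
Log2 fold change of Nelfb-/- against CTL (± SE) for the 8 genes outside chromosome 16 (red squares) and the tested genes within 200 kb of them (grey), against the distance in kb between the lower ends of the genes. The 4 receptor genes of chromosome 1 lie between 2.19 and 6.71, with Map4k4 at -0.09 on their left and Il18rap at 1.96 on their right.

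Other genes of the pathway were taken from lists by role. Of 72 tested genes on these lists, 15 rose and 1 fell past the limits, which is 22.2% beside 11.2% of all genes tested, and their median log2 fold change was 0.45. The inflammasome and other genes for the processing and release of IL-1 family cytokines rose in 4 of 12 cases and fell in 0, with a median of 1.33. Nlrp3, a sensor of the inflammasome, rose from 0.461 ± 0.320 CPM (SD, n = 3) to 5.67 ± 2.83 CPM (log2 fold change 3.70, SE 0.73, limma, adjusted p = 0.021), with 2.93 without CTL replicate 2 and no call without Nelfb-/- replicate 2 or 3. Its adaptor Pycard rose from 0.702 ± 0.403 to 6.39 ± 1.03 CPM (log2 fold change 3.28, SE 0.50, limma, adjusted p = 0.011), a call lost without Nelfb-/- replicate 3. Casp1, the protease that matures IL-18 and IL-1 beta, rose by 1.37 on the log2 scale (limma, adjusted p = 0.038) and Casp4 by 1.20 (limma, adjusted p = 0.023). The call of Casp1 held in only 1 of the 6 fits that left out a library, and that of Casp4 in 2. Nlrp3, Pycard and Casp1 were highest in Nelfb-/- replicate 1 and lowest of the Nelfb-/- libraries in replicate 2, the order of the macrophage marker sums. Casp4 was at 9.72, 8.61 and 8.53 CPM in Nelfb-/- cells. In CTL the macrophage sums were lowest in replicate 3. There Nlrp3 and Pycard were lowest in replicate 2, and Casp1 was highest in it. The part of macrophages was not tested.

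Of the 26 receptor signalling genes tested, which encode adaptors, kinases and ubiquitin ligases, 0 were called by limma beside 11.2% of all genes tested, 9 had an unadjusted p under 0.05 beside 32.5% of all genes, and their median log2 fold change was 0.07. Myd88, the adaptor of all these receptors, had means of 26.9 ± 9.68 CPM in CTL against 32.2 ± 4.97 CPM in Nelfb-/- cells (log2 fold change 0.31, SE 0.27, limma, adjusted p = 0.48). Among 11 NF-kappaB subunits and inhibitors, 2 rose and 0 fell. Nfkbie, an inhibitor of NF-kappaB, rose from 1.76 ± 0.401 to 4.86 ± 0.277 CPM (log2 fold change 1.47, limma, adjusted p = 0.017), and Bcl3, an atypical inhibitor family member, rose from 7.18 ± 3.02 to 16.5 ± 1.95 CPM (log2 fold change 1.27, limma, adjusted p = 0.037). Both calls were lost in most fits that left out a library, holding in 2 and 1 of 6.

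Genes that fibroblasts are known to induce in response to IL-1 rose in 9 of 21 cases and fell in 1, beside 7.58% and 3.64% of all genes tested. Their median log2 fold change was 1.37. Of the genes that rose, Cxcl5, Il6 and Il11 averaged 0.201, 0.0419 and 0.418 CPM in CTL. These means were under the 0.448 CPM of the read filter, so these genes were tested only because of their Nelfb-/- libraries. The chemokine Cxcl5, which attracts neutrophils, was at 0, 0.0933 and 0.510 CPM in CTL and at 10.4, 41.8 and 41.5 CPM in Nelfb-/- cells (log2 fold change 7.44, SE 1.0, limma, adjusted p = 0.0079). It was 6.57 without CTL replicate 1 and 8.38 without CTL replicate 3. Cxcl5 lay under the floor of 3 reads in CTL replicates 1 and 2, so the size of its change depends on the pseudocount. The value was 6.15 with a pseudocount of 5 reads and 7.88 with 0.5 reads. The monocyte chemokine Ccl2 was at 3.16, 2.85 and 9.25 CPM in CTL and at 63.6, 54.3 and 61.0 CPM in Nelfb-/- cells (log2 fold change 3.75, SE 0.44, limma, adjusted p = 0.0058). Ccl7, its neighbour in function, was at 7.26, 8.49 and 14.6 CPM and at 65.2, 68.8 and 71.6 CPM (log2 fold change 2.82, SE 0.27, limma, adjusted p = 0.0040). These 3 chemokines did not overlap between the groups, as did 22.0% of all genes tested in this direction. Among the Nelfb-/- libraries Cxcl5 was lowest in replicate 1, and Ccl2 and Ccl7 had too little spread for an order to be read.

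The cytokine Il6 had 3 reads in all CTL libraries together and 104 in the Nelfb-/- libraries, a ratio of 40.3 at equal depth with a 95% exact interval from 13.4 to 199 that covers counting error only (limma, adjusted p = 0.0060). The acute phase gene Saa3 was at 15.5, 7.70 and 3.26 CPM in CTL and at 64.4, 27.1 and 40.9 CPM in Nelfb-/- cells, in each group the order of the macrophage marker sums (log2 fold change 2.50, limma, adjusted p = 0.036). Lif, a cytokine of the Il6 family, rose from 1.68 ± 0.844 to 7.81 ± 2.46 CPM (log2 fold change 2.26, limma, adjusted p = 0.018). Il11, Vcam1 and Tnfaip6 also passed, by log2 fold changes of 2.02, 1.88 and 1.37 (limma, adjusted p = 0.019, 0.046 and 0.0058), and are named here after their values were seen. Vcam1 was called in 1 of the 6 fits that left out a library and Il11, Lif and Saa3 in 2 each, and without an abundance trend Saa3 (limma, adjusted p = 0.0502) and Vcam1 (limma, adjusted p = 0.064) were not called. The gene that fell was Ptges, which makes prostaglandin E, at 115, 103 and 160 CPM in CTL against 28.3, 45.0 and 40.0 CPM in Nelfb-/- cells (log2 fold change -1.74, SE 0.24, limma, adjusted p = 0.0085). Of the 16 pathway genes called, 6 were called in all 6 fits that left out 1 library: Il6, Cxcl5, Ccl2, Ccl7, Tnfaip6 and Ptges.

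**Figure D4:**
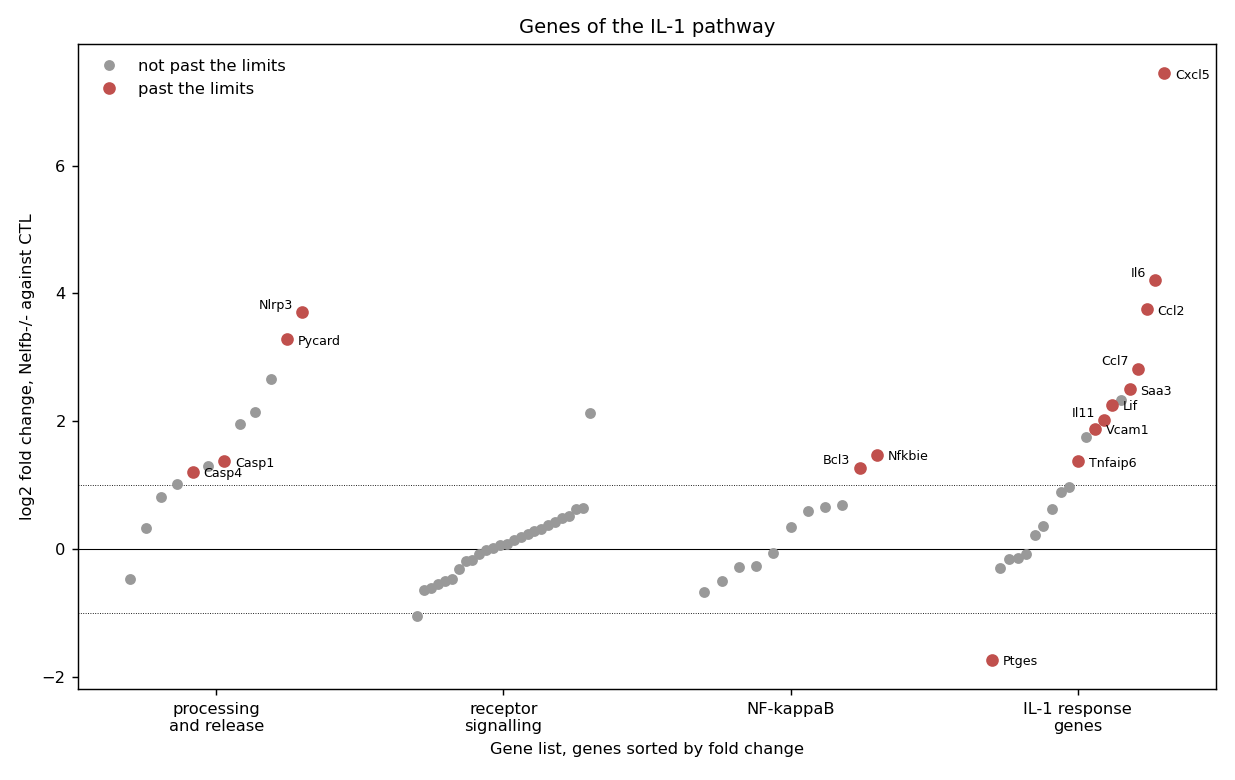
Log2 fold change of Nelfb-/- against CTL for each tested gene of 4 pathway lists, sorted within a list, with red for genes past the limits in limma and dotted lines at 2-fold. Past the limits are 4 of 12 genes for processing and release, 0 of 26 for receptor signalling, 2 of 11 for NF-kappaB and 10 of 21 IL-1 response genes; the fitted value drawn for Il6 rests on 3 CTL reads.

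Other ligands, inhibitors and type 2 cytokines on the lists had few members in the table. Il18bp, the secreted inhibitor of IL-18, was at 1.08, 1.17 and 1.16 CPM in CTL and at 14.5, 2.15 and 3.47 CPM in Nelfb-/- cells. The groups did not overlap, but Nelfb-/- replicate 1 held most of it, and the difference did not pass (log2 fold change 2.03, SE 0.68, limma, adjusted p = 0.091). Il1f10, which encodes IL-38, was at 0, 0 and 0.0680 CPM in CTL and at 0.0474, 0.815 and 0.571 CPM in Nelfb-/- cells, and was too low to test. Of the type 2 cytokines that immune cells make in response to IL-33, Il13 and Areg were in the table and neither had enough reads to test. Il13 lay between 0.0467 and 0.135 CPM in CTL and between 0.142 and 1.22 CPM in Nelfb-/- cells. Areg lay between 0.0451 and 1.53 CPM in CTL and between 0.245 and 0.291 CPM in Nelfb-/- cells.

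The genes whose profile over the 6 libraries was nearest to that of Il1rl1, by the root mean square difference of centred log2 values, were Mup22 (0.220), Mup15 (0.459), Mup11 (0.579), Mup19 (0.600) and Dct (0.641). Mup22 was at 1.11, 0.611 and 4.23 CPM in CTL and at 286, 111 and 164 CPM in Nelfb-/- cells. The Mup genes encode major urinary proteins and are near-identical copies, so which copy a read came from is uncertain. Dct, an enzyme of melanin synthesis, was at 0.0902, 0.280 and 0.442 CPM in CTL and at 28.9, 12.0 and 18.8 CPM in Nelfb-/- cells. All 5 were highest in Nelfb-/- replicate 1 and lowest among the Nelfb-/- libraries in replicate 2, as was Il1rl1. They were picked for nearness to Il1rl1, so nothing is read from this shared order.

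Levels of cell type markers also differed among the libraries, not all in the same way. Of 15 macrophage markers, 14 rose with limma beside 7.58% of all genes tested, 14 did not overlap between the groups beside 22.0%, none was at 0 in any library, and their summed level was 957, 489 and 262 CPM in CTL against 8211, 2599 and 4450 CPM in Nelfb-/- cells. Csf1r, the receptor of a macrophage growth factor, rose from 16.8 ± 5.27 to 147 ± 59.3 CPM (log2 fold change 3.08, limma, adjusted p = 0.0058). Nelfb-/- replicate 1 held the most macrophage marker RNA, and was also the highest Nelfb-/- library for 6 of the 9 genes: Il1rl1, Il1rn, Il18, Il1r2, Il1rap and Il1a. CTL replicate 3 had the least macrophage marker RNA of the CTL libraries, and among the CTL Il1rl1 was highest in it and Il1rn lowest. No CTL order is read for Il1r2 and Il1rap, which spread over 1.07-fold and 1.17-fold there, or for Il18 and Il1a, which had few reads. The part of macrophages in these results, and in those of Nlrp3, Pycard, Casp1 and the chemokines, was not tested.

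Fibroblast markers, 9 of 9 tested with 1 called higher beside 7.58% of all genes, summed to 7647, 6769 and 21109 CPM in CTL against 13111, 37454 and 39752 CPM in Nelfb-/- cells. In this sum CTL replicate 3 was highest among the CTL libraries and Nelfb-/- replicate 1 lowest in its group, and Il1r1 and Il1rl2 had the same high and low libraries. Dcn, on the same list, went the other way in CTL, at 467, 501 and 310 CPM. Il33 was also lowest in Nelfb-/- replicate 1. Adipocyte markers, 10 of 10 tested, were present in all libraries, with 1 called lower (Retn) beside 3.64% of all genes and 1 called higher (Lep) beside 7.58%, and summed to 43620, 40408 and 26225 CPM in CTL against 17755, 25746 and 21738 CPM in Nelfb-/- cells. The part of both cell types was not tested.

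**Figure D5:**
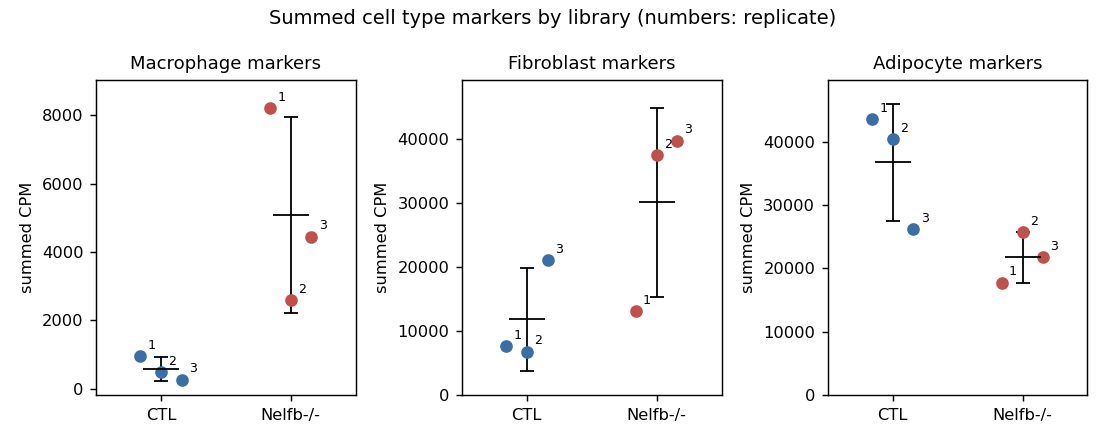
Summed CPM of 15 macrophage, 9 fibroblast and 10 adipocyte markers in each library (linear axes), with the replicate number beside each point and the mean ± SD as bars (n = 3). Macrophage marker sums are 262 to 957 CPM in CTL and 2599 to 8211 CPM in Nelfb-/- cells, and CTL replicate 3 has the highest fibroblast sum of the CTL libraries.

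Mast cells and group 2 innate lymphoid cells are known for high Il1rl1. Of 10 mast cell markers 5 were in the table. Their summed level was 3.38, 4.81 and 1.46 CPM in CTL against 11.05, 2.50 and 3.26 CPM in Nelfb-/- cells. The sum was highest in Nelfb-/- replicate 1, as Il1rl1 was, and Kit gave 7.49 CPM of it there. Nelfb-/- replicates 2 and 3 lay within the CTL range. Among the CTL libraries the sum was lowest in replicate 3, where Il1rl1 was highest. Only Kit had enough reads to test (log2 fold change 0.62, limma, adjusted p = 0.62). Cpa3, Hdc, Cma1 and Tpsb2 were each highest in Nelfb-/- replicate 1, and the mast cell protease Tpsb2 was at 1.80 CPM there and at 0 in 4 of the other libraries. Of 10 lymphoid markers 4 were in the table and 0 were called with limma, with an unadjusted p under 0.05 for 1, Thy1, which fibroblasts also express. Thy1 was at 151, 164 and 432 CPM in CTL against 321, 614 and 707 CPM in Nelfb-/- cells (log2 fold change 1.23, limma, adjusted p = 0.13). Gata3 was at 1.08, 1.73 and 0.510 CPM in CTL and at 0.664, 0.233 and 0.204 CPM in Nelfb-/- cells, Il7r lay between 2.01 and 12.1 CPM and between 1.88 and 13.0 CPM, and Il2ra between 0.271 and 1.03 CPM and between 0.979 and 1.51 CPM. The groups of all 4 overlapped. Keratinocyte markers summed to between 3.74 and 5.13 CPM in CTL and between 8.72 and 19.3 CPM in Nelfb-/- cells, with 1 of 5 tested called higher (Krt14) beside 7.58% of all genes, and endothelial markers to between 7.85 and 12.1 CPM and between 9.20 and 23.5 CPM, with 1 of 6. Their part in the levels of the IL-1 family was not tested.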

How the data were processed

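RNA was sequenced from 3 CTL and 3 Nelfb-/- cultures, called biological triplicates in the methods. Per the labels and the submitters' processing notes, the tools were STAR 2.7 and Partek 9.0.20.0202 with mm10, and strand and shared reads are not given in the sources used here. The deposited values are CPM, with an offset of 0.0001 that the authors' table adds to each value, subtracted here. The smallest step of a library was taken as 1 read. Between 69.0% and 72.2% of values up to 20 reads were whole (within 0.02 reads), so no count test was run. Values were scaled to reads at the common depth of 22.3 M reads (M, 1e+06), and genes averaging 10 or more reads (0.448 CPM) were tested on log2(reads + 1) with limma 3.58.1 (R 4.3.3) with an abundance trend and Benjamini-Hochberg adjustment. A gene low in CTL could enter the tests through its Nelfb-/- libraries, as Aif1, Krt14 and Emcn did among the cell type markers called. The fit was checked on simulated data. Positions are those of the table, and Ensembl IDs and exon lengths are from GENCODE vM21. The 9 genes, the lists and the tests were chosen with earlier results of these data known, and the motifs after the values were seen. Genes named are all 9, Nelfb, list genes past the limits (the 6 largest in a direction where over 6 pass), genes within 200 kb, the other family ligands and receptors in the table, and the 5 profiles nearest to Il1rl1. Myd88, the type 2 cytokines and the single cell type markers were named after their values were seen.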

Additional observations from a re-analysis of the deposited data

How the results depend on the processing

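In all, 14 other settings and 1 more chosen after seeing the data (leaving out CTL replicate 3 and Nelfb-/- replicate 1) were run. Leaving out 1 library gave 426 to 2479 genes past the limits against 1824 (lowest without Nelfb-/- replicate 3, 871, 758 and 945 without CTL replicate 1, CTL replicate 2 and Nelfb-/- replicate 2), 6 to 19 pathway genes against 16 (lowest without Nelfb-/- replicate 3, highest without CTL replicate 3), and 3 to 8 of the 9 IL-1 family genes against 6 (3 without CTL replicate 1 and without Nelfb-/- replicate 2 or 3, 4 without CTL replicate 2, 8 without CTL replicate 3). Leaving out both libraries gave 4383 genes, 27 pathway genes, 7 of the 9 and 3 neighbouring genes (Ckap2l, Gm4430 and Il18rap) against 0, and Il18bp passed too (1.25, limma, adjusted p = 0.018), while Casp1 was at 0.95. Neighbouring genes past the limits numbered 1 without a filter and 1 with at least 10 reads in any library (Gm38070 in both), and 1 with median of ratios or trimmed mean scaling (Sdhd), and 0 without any single library. Scaling moved the median of all genes from 0.068 to -0.0016 and -0.017. Map4k4 was positive without CTL replicate 1 (0.072), CTL replicate 2 (0.053) or Nelfb-/- replicate 3 (0.011), with a lowest value of -0.39 without CTL replicate 3. Il1a was at -0.14 with a pseudocount of 0.5 reads and between -0.36 (without CTL replicate 3) and 1.29 (without Nelfb-/- replicate 2) over 5 fits, and left the fit without Nelfb-/- replicate 1. The other 8 of the 9 genes kept a positive fold change in every alternative. Same-numbered libraries deviated together at r = 0.52, -0.39 and 0.52 (16252 genes). Differently numbered libraries reached 0.48 (CTL replicate 2 with Nelfb-/- replicate 1) and 0.54 (CTL replicate 3 with Nelfb-/- replicate 2). These values cannot tell whether the numbers pair the libraries. With the replicate number as a block, 2175 genes, 20 pathway genes, 8 of the 9 and 0 neighbouring genes passed. With 3 libraries in each group, an exact permutation test of 1 gene cannot give a p below 0.10, and levels under 3 reads were not read.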
